A study of Mus musculus with 2 samples.

Results

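The genes described here are the heat shock proteins, the heat shock factors and the subunits of the cytosolic chaperonin, 43 protein-coding genes of 22028 in the annotation used. They were taken by symbol: every protein-coding gene whose name starts with Hspa, Hspb, Hspd, Hspe, Hsph or Hsp90, or is Tcp1, a numbered Cct gene or a numbered Hsf gene. Their polyadenylated RNA was measured in the midbrain of B6NCrl mouse embryos at 12.5 days of gestation, in 1 group of 2 libraries with no treatment and no control group. Replicate 1 was a pool of 120 embryos and replicate 2 a pool of 88, each of males and females together, so neither library shows the spread between single embryos. Each library started from 10 ng of RNA, was primed with oligo-dT and cut by a transposase, and held ERCC control RNAs. Replicate 1 held 30274342 expected counts (reads assigned to a feature by a model, which need not be whole numbers) and replicate 2 held 38421860. All 5 midbrain genes used as a check of the dissection were detected, led by Otx2 at 145 TPM in replicate 1 and 141 TPM in replicate 2. The other 4 were higher in replicate 2 beyond counting error: En1 (5.60 TPM in replicate 1 and 8.06 TPM in replicate 2), Pax7 (3.37 and 4.45 TPM), Lmx1b (1.72 and 2.22 TPM) and En2 (1.14 and 1.64 TPM). Pax6, listed as a neural progenitor gene, stood at 57.2 TPM in replicate 1 and 16.9 TPM in replicate 2, so the pools also differed in regional genes. Genes of mesenchyme and of red blood cells were also present, with summed levels of 721 and 7559 TPM in replicate 1 and 1030 and 8574 TPM in replicate 2.

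Chaperones bind proteins that are not yet folded, or have lost their fold, and let them fold without clumping. Hsp70 proteins bind and release short exposed stretches in a cycle driven by ATP, J-domain proteins bring them their clients, and Hsp110 proteins and other exchange factors restart the cycle. Hsp90 acts later, on kinases, hormone receptors and other clients that are nearly folded. The cytosolic chaperonin is a double ring of 8 different subunits that closes around actin, tubulin and other newly made proteins, which growing neurons use in bulk. Small heat shock proteins hold unfolded proteins without ATP, and heat shock factors are the transcription factors that raise many of these genes when proteins lose their fold.

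Levels are given as TPM, the abundance of a gene's transcripts scaled to a fixed total per library and corrected for length, so genes can be compared within a library. The 43 genes together stood at 9003 TPM in replicate 1 and 9138 TPM in replicate 2. This was 0.997% and 0.994% of the TPM of all annotated genes, averaging 0.995% ± 0.00164 (SD, n = 2). The fixed TPM total also covers the ERCC control RNAs, which took 4.02% of counts in replicate 1 and 3.38% in replicate 2. Small differences in TPM between the libraries, here and below, therefore also carry this unequal share. Their median level was 51.4 TPM, against 4.47 TPM for all protein-coding genes and 22.2 TPM for the coding genes that were detected. Under the older annotation M4 their median was 33.4 TPM. That value leaves out Hspa14, which has no M4 value under its identifier and lies above the median under M21, so the 2 medians cover unlike sets. Detection meant at least 1 TPM in both libraries, and 32 of the 43 reached it, beside 59.4% of all protein-coding genes. At 100 TPM or more stood 15 members, against 7.43% of protein-coding genes. Hspa8, Hsp90ab1, Hsp90aa1 and Cct3 alone made up 52.0% of the summed level in each library.

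**Figure D1:**
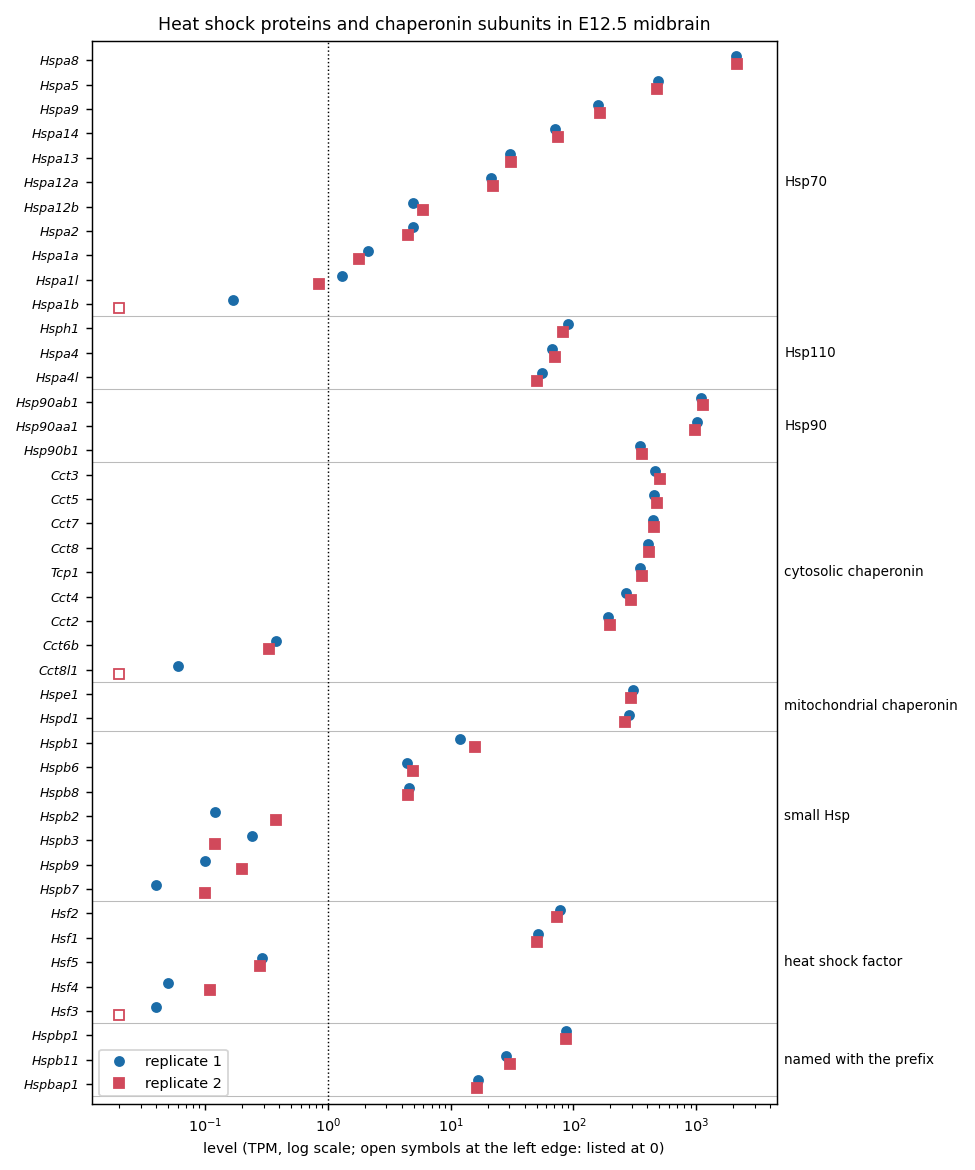
Level of each of the 43 members in replicate 1 (blue circles) and replicate 2 (red squares), in TPM on a log scale, grouped by family; the dotted line marks 1 TPM and open symbols at the left edge mark genes listed at 0. Cytosolic chaperonin subunits and Hsp90 genes sit mostly above 100 TPM, while small heat shock proteins lie at 15.91 TPM or below.

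The summed level was divided mainly among 3 families. Hsp70 genes held 32.2% of it in replicate 1 and 31.9% in replicate 2, cytosolic chaperonin genes 28.6% and 29.6%, and Hsp90 genes 27.1% in both. Mitochondrial chaperonin genes followed at 6.52% in replicate 1 and 6.09% in replicate 2, and Hsp110 genes at 2.36% and 2.23%. Small heat shock proteins were the least abundant family, with 0.239% in replicate 1 and 0.286% in replicate 2 for 7 genes.

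The libraries were compared gene by gene on expected counts scaled by TMM, with an exact binomial 95% interval for each log2 ratio of replicate 1 over replicate 2. These intervals cover counting error only, since amplified reads without molecular identifiers are not independent molecules, and each pool has 1 library, so no p-value can be given. At least 10 counts in a library were needed, and 35 members met this. The interval excluded equality for 16 of the 35, beside 32.3% of all 19885 genes compared. Of these members 10 were higher in replicate 1, where 15.5% of all genes were, and 6 were higher in replicate 2, where 16.7% of all genes were. Deeply counted genes pass such an interval more easily: among genes at 20 TPM or more the shares were 13 of 25 members and 43.2% of 7186 genes. Cell type markers also moved between the libraries beyond counting error. Higher in replicate 1 were 4 of 4 neuron, 3 of 5 neural progenitor, 1 of 5 midbrain (Otx2) and 1 of 4 endothelial markers (Kdr). Higher in replicate 2 were 1 of 5 neural progenitor (Hes5), 4 of 5 midbrain, 3 of 4 erythroid, 3 of 4 endothelial, 3 of 4 pericyte and smooth muscle and 3 of 4 mesenchyme markers. None of 4 microglia markers moved in either direction. Of the skeletal and heart muscle markers, 3 had enough counts, with 1 higher in replicate 1 (Ttn) and 2 in replicate 2 (Tnnt2 and Myh6). The median level of that list was 0.375 TPM. The 1 lens and eye marker with enough counts did not move. The summed neural progenitor level was 1768.5 TPM in replicate 1 and 1815.5 TPM in replicate 2. The part of these markers in the differences of the members was not tested. The directions depend on the scaling: under ERCC totals, which moved the median log2 ratio over all genes to -0.28, only Hspa1l kept more counts in replicate 1, within counting error, and 28 members were higher in replicate 2. No member differed by 2-fold or more, against 4.23% of all genes compared. The median absolute log2 ratio was 0.07 for the members compared and 0.14 for all genes compared, and at 20 TPM or more it was 0.05 for members and 0.07 for all genes.

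**Figure D2:**
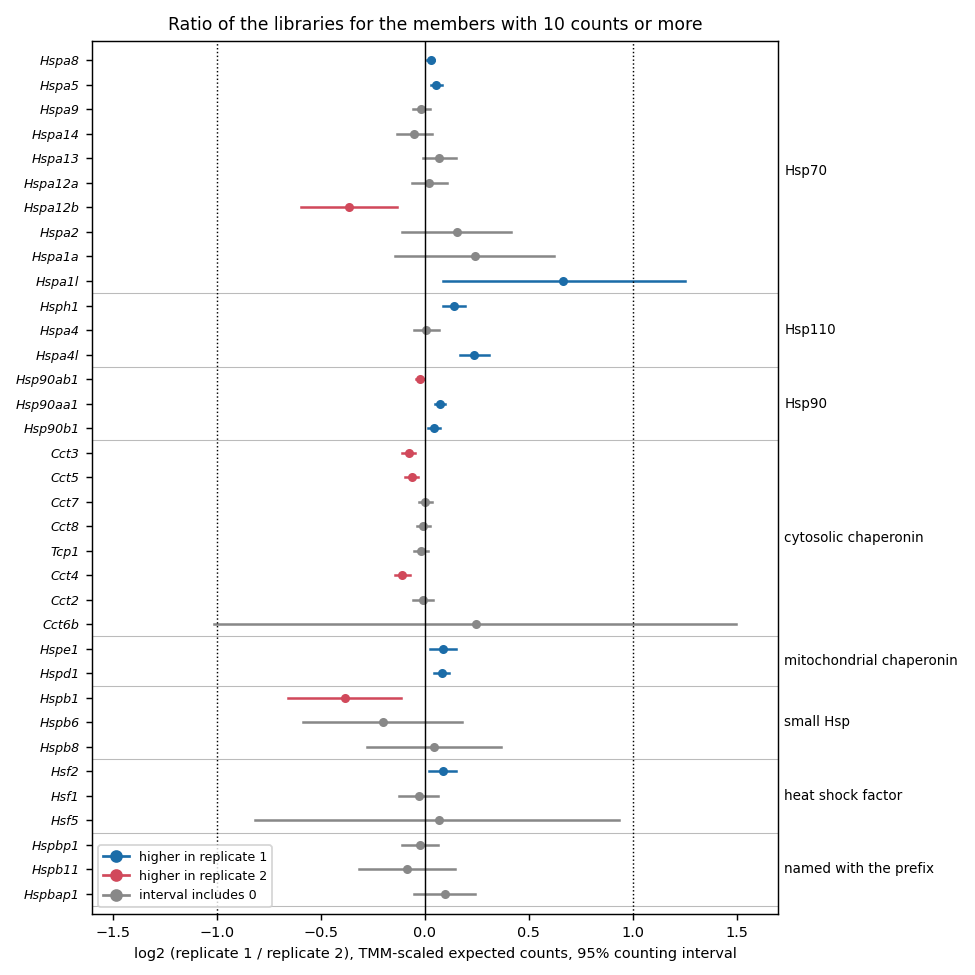
The log2 ratio of replicate 1 over replicate 2 for the 35 members with at least 10 counts in a library, with 95% counting intervals; blue marks members higher in replicate 1, red those higher in replicate 2, grey intervals that include 0, and dotted lines mark a 2-fold ratio. All ratios lie between -0.38 (Hspb1) and 0.67 (Hspa1l).

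Among the Hsp70 genes the cytosolic form made without stress was far above the rest. Hspa8 (ENSMUSG00000015656.17, chr9:40800984-40810087 of mm10, plus strand), which encodes the constitutive Hsc70 that also strips clathrin from vesicles, stood at 2118 TPM in replicate 1 and 2131 TPM in replicate 2, rank 21 among protein-coding genes. Hspa5 (ENSMUSG00000026864.13, chr2:34771970-34777547, plus strand), the BiP chaperone of the endoplasmic reticulum, stood at 489.9 TPM in replicate 1 and 477 TPM in replicate 2. Hspa9, the mitochondrial Hsp70 that pulls in imported proteins, stood at 158 TPM in replicate 1 and 163 TPM in replicate 2. Within a library Hspa5 was lower than Hspa8 by a log2 ratio of -2.11 in replicate 1 and -2.16 in replicate 2. After TMM scaling the counts of Hspa8 and Hspa5 were slightly higher in replicate 1, with log2 ratios of 0.03 (0.01 to 0.04) and 0.06 (0.03 to 0.08).

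The other Hsp70 genes were much lower. Hspa14, whose human product works with a J-domain protein at the ribosome, stood at 70.1 TPM in replicate 1 and 75.2 TPM in replicate 2. Hspa13, a microsomal Hsp70-like protein, stood at 30.5 TPM in replicate 1 and 30.9 TPM in replicate 2, and the divergent member Hspa12a at 21.3 and 22.0 TPM. Hspa2, which is needed in male germ cells, stood at 4.94 TPM in replicate 1 and 4.53 TPM in replicate 2. The intervals of these 4 included equality.

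Hspa12b, a divergent Hsp70 known from endothelial cells, stood at 4.90 TPM in replicate 1 and 5.93 TPM in replicate 2, with a log2 ratio of -0.36 (-0.60 to -0.13). Summed levels of 4 endothelial markers were 73.9 TPM in replicate 1 and 81.8 TPM in replicate 2, and 3 of the 4 were likewise higher in replicate 2 beyond counting error. Kdr was the exception, at 24.6 TPM in replicate 1 and 22.9 TPM in replicate 2. Their part in the Hspa12b difference was not tested. In whole tissue, fewer cells of a type and less RNA per cell cannot be told apart, which holds for every level given here.

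The stress-inducible Hsp70 pair was near the limit of detection. Hspa1a (ENSMUSG00000091971.3, chr17:34969190-34972156, minus strand) stood at 2.12 TPM in replicate 1 and 1.81 TPM in replicate 2, from 113 and 123 expected counts. Hspa1b (ENSMUSG00000090877.3, chr17:34956436-34959238, minus strand) stood at 0.17 TPM in replicate 1, from 8.7 expected counts, and was listed at 0 in replicate 2, where 3 counts would have been 0.0471 TPM. The posterior SD of the expected counts, which measures how uncertain the model was in dividing reads, was 3.29 counts for Hspa1b in replicate 1 and 4.15 for Hspa1a. Hspa8 exceeded the sum of both by log2 ratios of 9.85 in replicate 1 and 10.20 in replicate 2, averaging 10.03 ± 0.25 (SD, n = 2). The neighbouring Hspa1l, known from testis, stood at 1.30 TPM in replicate 1 and 0.85 TPM in replicate 2, a log2 ratio of 0.67 (0.09 to 1.25) from 57.5 and 47.4 expected counts. This was the largest ratio among the members compared, and 1681 of the 2373 windows of 100 bases in its longest coding transcript also occur in Gm10501, an antisense gene on the opposite strand. The posterior SD of Hspa1l was 7.17 counts in replicate 1 and 5.81 in replicate 2. The interval of its ratio leaves this uncertainty out, so it is too narrow.

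The pair had to be read with care because their coding sequences are almost the same. Aligned over their coding parts, Hspa1a (1926 bases) and Hspa1b (1929 bases) were identical at 99.4% of columns, with 8 substitutions and 3 bases that Hspa1b alone holds, and the longest identical run was 638 bases. Hspa1a and Hspa1l were identical at 82.7%. Most of the coding differences between Hspa1a and Hspa1b lie far apart, at A156G, T795G, A921G, A1380G, A1416G and A1629G, where the Hspa1a base comes first and positions count from 1 at the start codon of Hspa1a. The stretch below is shown because it holds the densest cluster, the 3 extra bases followed by C1881G and G1884A; it runs from coding base 1856 to 1912 of Hspa1a and to 1915 of Hspa1b on chromosome 17, 5′ to 3′, from the GENCODE M21 transcripts, with differing bases in capitals.
Hspa1a: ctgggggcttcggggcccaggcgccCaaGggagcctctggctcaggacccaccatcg
Hspa1b: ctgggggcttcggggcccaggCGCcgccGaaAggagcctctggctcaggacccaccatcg
Of the 100-base windows of the longest coding transcript, 47.1% of those of Hspa1a and 49.9% of those of Hspa1b occur in the other gene. A read from such a window does not tell the copies apart, and the sum of both does not depend on that division.

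Hsp110 genes, relatives of Hsp70 that act as its exchange factors, were all detected. Hsph1 stood at 90.6 TPM in replicate 1 and 82.2 TPM in replicate 2, Hspa4 at 66.9 and 71.0 TPM, and Hspa4l at 55.3 and 50.3 TPM. On protein-coding transcripts alone they lay further apart. Hsph1 then stood at 78.2 TPM in replicate 1 and 72.8 TPM in replicate 2, Hspa4l at 51.7 and 47.2 TPM, and Hspa4 at 27.85 and 26.85 TPM. Hspa4l and Hsph1 were higher in replicate 1, by log2 ratios of 0.24 (0.17 to 0.31) and 0.14 (0.09 to 0.20). The interval of Hspa4 included equality.

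Partners of Hsp70 and Hsp90 were described from lists chosen with earlier results of these data known. Detection of the listed genes therefore says nothing of partners left off the lists, which holds for every partner list here. All 21 J-domain proteins listed were detected (median 44.3 TPM), beside 59.4% of all protein-coding genes. Of the 21, 6 lay beyond counting error, 5 higher in replicate 1 and 1 in replicate 2. The share was 32.3% of all genes compared and 43.2% of those at 20 TPM or more. Dnaja1, a cytosolic Hsp70 partner, was the highest at 515 TPM in replicate 1 and 489 TPM in replicate 2, followed by Dnajc7 at 251 and 243 TPM. Dnaja4 was the lowest at 3.37 TPM in replicate 1 and 2.89 TPM in replicate 2. All 16 regulators of Hsp70 and Hsp90 were detected as well, with a median of 138 TPM. Ptges3, the p23 co-chaperone that steadies the closed form of Hsp90, led them at 423 TPM in replicate 1 and 428 TPM in replicate 2, and Fkbp4, an immunophilin of steroid receptor complexes, followed at 379 and 404 TPM. Bag3, an exchange factor induced by stress, was the lowest at 3.52 TPM in replicate 1 and 3.08 TPM in replicate 2. Of the 16 regulators 1 was higher in replicate 1 and 5 in replicate 2 beyond counting error, beside 15.5% and 16.7% of all genes compared. Among all genes at 20 TPM or more the share was 43.2% in either direction. Over all partner lists 24 of 69 genes lay beyond counting error, 12 in each direction, beside 32.3% of all genes and 43.2% of those at 20 TPM or more.

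**Figure D3:**
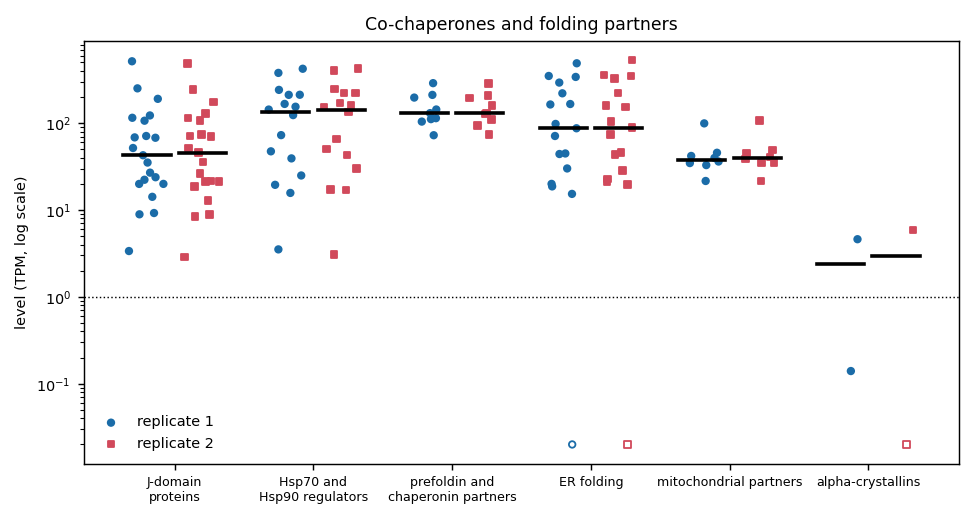
Levels of 70 co-chaperone and folding partner symbols by list in replicate 1 (blue circles, left) and replicate 2 (red squares, right), in TPM on a log scale, with the median as a black line and open symbols for genes listed at 0. Dnajb9 and Dnajb11 stand in 2 lists, and Ddit3 appears under 2 gene identifiers, 1 of them at 0. Except for the alpha-crystallins, every list has its median above 10 TPM in both libraries.

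The cytosolic Hsp90 genes were the most abundant after Hspa8. Hsp90ab1 (ENSMUSG00000023944.14, chr17:45567775-45573271, minus strand), the constitutive cytosolic form, stood at 1088 TPM in replicate 1 and 1144 TPM in replicate 2. Hsp90aa1 (ENSMUSG00000021270.13, chr12:110690605-110702728, minus strand), the cytosolic form that stress can raise, stood at 1011 TPM in replicate 1 and 969 TPM in replicate 2. Hsp90ab1 was the higher of the pair in both libraries, by log2 ratios of 0.11 and 0.24, averaging 0.17 ± 0.09 (SD, n = 2). The order held but the size of this gap depended on how length was treated, as a 711-base transcript took 47.9% of the Hsp90aa1 TPM in replicate 1 and 49.5% in replicate 2. Expected counts divided by the length of each gene's longest coding transcript put Hsp90ab1 ahead by log2 ratios of 1.03 in replicate 1 and 1.12 in replicate 2. Hsp90b1, the Grp94 form of the endoplasmic reticulum, stood at 345 TPM in replicate 1 and 359 TPM in replicate 2, although its scaled counts were slightly higher in replicate 1, the log2 ratio being 0.04 (0.02 to 0.07). Its leading transcript took 97.2% of its TPM in replicate 1 and 91.9% in replicate 2.

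The endoplasmic reticulum list, the setting of Hspa5 and Hsp90b1, had 16 symbols, all detected, with a median of 88.0 TPM over 17 gene identifiers. Calr, a lectin-like chaperone that also stores calcium, was the highest at 489 TPM in replicate 1 and 534 TPM in replicate 2, followed by the disulfide isomerase Pdia3 at 349 and 359.5 TPM. Ddit3, the stress-induced factor CHOP, was the lowest at 15.3 TPM in replicate 1 and 19.6 TPM in replicate 2, beside a further identifier of the same symbol at 0. In this list 4 genes were higher in replicate 1 and 4 in replicate 2, beside 43.2% in either direction among all genes at 20 TPM or more.

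The 8 genes of the cytosolic chaperonin ring were all abundant but not equal. In the protein ring each subunit occupies 1 place per ring, so the spread of the transcripts can be set beside equal numbers in the protein. The highest in replicate 1 and replicate 2 was Cct6a at 519.9 and 555 TPM, which the annotation lists as a processed transcript and which is therefore not among the 43. Its rank depends on the annotation: under M4 it stood at 413 TPM in replicate 1 and 434 TPM in replicate 2, below Cct3 (491 and 536 TPM) and Cct5 (467 and 493 TPM). Cct3 (ENSMUSG00000001416.13, chr3:88297116-88321767, plus strand) stood at 463 TPM in replicate 1 and 507 TPM in replicate 2, and Cct5 at 452 and 479 TPM. The values of Cct3 and Cct5 overlapped between the libraries, while no other neighbours in the order under M21 did. Cct7 stood at 445 TPM in replicate 1 and 450.2 TPM in replicate 2, Cct8 at 407 and 414 TPM, and Tcp1, the alpha subunit, at 348 and 363 TPM. Under M4 Cct7 was lower, at 348 TPM in replicate 1 and 353 TPM in replicate 2. It was then below Cct8 (427 and 434 TPM) and Tcp1 (361 and 376 TPM). On protein-coding transcripts alone Cct7 (277 and 286 TPM) was again below Cct8 (288 and 302 TPM) and Tcp1 (302 and 317 TPM). Cct5 (430 and 458 TPM) was then above Cct3 (330 and 349 TPM). Cct4 at 267 TPM in replicate 1 and 296 TPM in replicate 2 and Cct2 at 192 and 198 TPM were the lowest.

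The highest of the 8 subunits exceeded the lowest by 2.71 times in replicate 1 and 2.80 times in replicate 2, averaging 2.75 ± 0.07 (SD, n = 2), and the coefficient of variation over the subunits was 28.7% ± 0.190. Without Cct6a the ratio was 2.48. Expected counts per base of the longest coding transcript gave a ratio of 2.40, with Cct5 highest and Cct2 again lowest, at 2.35 times the value of Cct2 in replicate 1 and 2.45 times in replicate 2. Beyond counting error none of the 8 was higher in replicate 1. Cct3, Cct5, Cct4 and Cct6a were higher in replicate 2, by log2 ratios of -0.08, -0.06, -0.11 and -0.05, beside 43.2% in either direction among all genes at 20 TPM or more. For Cct7, Cct8, Tcp1 and Cct2 the intervals included equality. Under ERCC totals all 8 were higher in replicate 2. Cct6b, a form of the zeta subunit known from testis, and Cct8l1 lay under 1 TPM in both libraries.

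**Figure D4:**
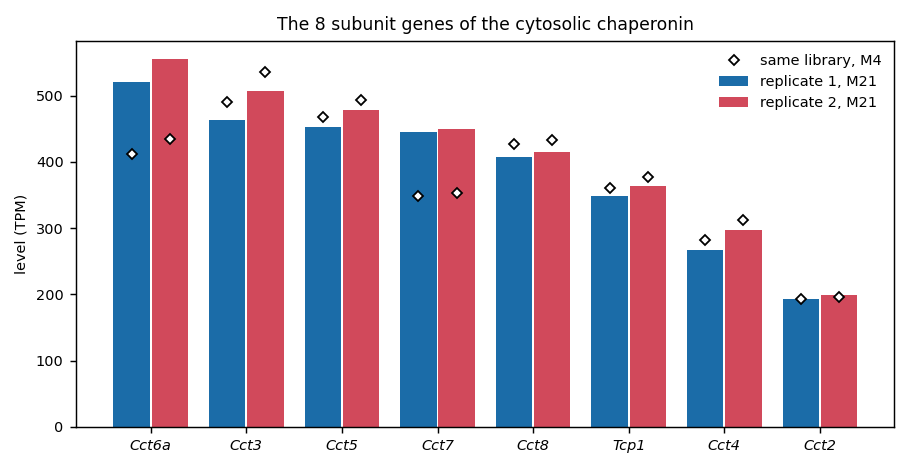
Level of the 8 genes of the cytosolic chaperonin ring in replicate 1 (blue, left) and replicate 2 (red, right), in TPM from annotation M21; open diamonds give the same library quantified against the older annotation M4. The bars fall from 519.94 and 555.07 TPM for Cct6a to 192.18 and 198.22 TPM for Cct2, and the diamonds stand furthest below the bars for Cct6a and Cct7.

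Prefoldin passes unfolded actin and tubulin to this ring, and all 9 genes listed as prefoldin or chaperonin partners were detected, with a median of 129 TPM. Pfdn5 was the highest at 289 TPM in replicate 1 and 284 TPM in replicate 2, followed by Pdcd5 at 211 and 207 TPM. Pfdn1 was the lowest at 72.6 TPM in replicate 1 and 74.3 TPM in replicate 2. In this list 2 genes were higher in replicate 1 and 0 in replicate 2 beyond counting error, beside 15.5% and 16.7% of all genes compared. Among all genes at 20 TPM or more the share was 43.2% in either direction.

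The mitochondrial chaperonin and its lid were expressed at nearly matched levels. Hspd1 (ENSMUSG00000025980.14, chr1:55077835-55088243, minus strand), which encodes Hsp60, stood at 281 TPM in replicate 1 and 264 TPM in replicate 2. Hspe1 (ENSMUSG00000073676.4, chr1:55088132-55091307, plus strand), which encodes the Hsp10 lid, stood at 306 TPM in replicate 1 and 293 TPM in replicate 2. The log2 ratio of Hspd1 over Hspe1 was -0.12 in replicate 1 and -0.15 in replicate 2, averaging -0.13 ± 0.02 (SD, n = 2). Both genes were higher in replicate 1, by log2 ratios of 0.08 (0.05 to 0.12) for Hspd1 and 0.09 (0.03 to 0.15) for Hspe1. All 8 mitochondrial partners were detected, with a median of 38.5 TPM. Clpp, a protease of the matrix, led at 99.3 TPM in replicate 1 and 108 TPM in replicate 2, followed by the mitochondrial Hsp90 Trap1 at 45.6 and 49.2 TPM, and Grpel2, an exchange factor, was the lowest at 21.6 and 21.7 TPM. Among these partners 0 were higher in replicate 1 and 2 in replicate 2 beyond counting error, beside 15.5% and 16.7% of all genes compared. Among all genes at 20 TPM or more the share was 43.2% in either direction.

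Hspd1 and Hspe1 are neighbours that are read away from each other, and their annotated ends overlap by 112 bases on opposite strands. Their start regions were searched for a heat shock element, the site that heat shock factors bind, written as 3 alternating units of TTC and GAA with 2 free bases between neighbours, in both phases, which are each other's reverse complement, and with overlapping matches counted. RefSeq windows of 300 bases, 250 before and 50 after an annotated start (GRCm38.p6), were at hand for 34 of the 43 members. Of these 34, 3 held the motif, beside 0.662% of 27025 genes in the table. The Hspe1 and Hspd1 windows hold the same stretch read from opposite strands, with matches that overlap, at offsets -89 and -84 from the Hspe1 start and -144 and -139 from 1 of the annotated Hspd1 starts. The window of another Hspd1 start (chr1:55088194-55088493, minus strand) held no match. The third was Hsph1, where the match lies after 1 annotated start at offset 36 and after the other at offset 15. These windows are printed to show the match, in capitals, in Hspe1 (chr1:55087898-55088197, plus strand) and Hsph1 (chr5:149636266-149636565, minus strand), 5′ to 3′.
Hspe1: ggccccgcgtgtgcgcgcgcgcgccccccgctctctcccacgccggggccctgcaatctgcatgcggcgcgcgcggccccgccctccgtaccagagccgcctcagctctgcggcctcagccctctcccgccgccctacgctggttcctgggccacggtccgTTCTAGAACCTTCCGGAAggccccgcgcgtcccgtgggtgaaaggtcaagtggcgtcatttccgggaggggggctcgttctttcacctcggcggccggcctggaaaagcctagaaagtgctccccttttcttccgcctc
Hsph1: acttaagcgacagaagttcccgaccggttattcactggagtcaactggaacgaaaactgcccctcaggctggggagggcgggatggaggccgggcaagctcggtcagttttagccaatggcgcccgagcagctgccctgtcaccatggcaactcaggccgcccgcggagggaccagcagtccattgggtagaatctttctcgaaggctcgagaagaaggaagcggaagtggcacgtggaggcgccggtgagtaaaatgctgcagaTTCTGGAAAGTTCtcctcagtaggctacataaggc
A match describes the letters and does not show that a factor binds there. The windows of Hspa1a and Hspa1b, 98.7% identical to each other, held no match to this spelling, which says only that these letters are not in those windows. No window was at hand for Cct4, Hsf1, Hsf4, Hsp90aa1, Hsp90ab1, Hspa13, Hspa8, Hspa9 and Hspb2.

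Small heat shock proteins were scarce. Hspb1 (ENSMUSG00000004951.10, chr5:135887919-135889563, plus strand), the Hsp25 that binds actin and unfolded proteins, was the highest at 11.98 TPM in replicate 1 and 15.9 TPM in replicate 2. Its log2 ratio was -0.38 (-0.66 to -0.11), the lowest among the members compared. Summed levels of 4 mesenchyme markers were 721 TPM in replicate 1 and 1030 TPM in replicate 2, and those of 4 pericyte and smooth muscle markers 67.5 and 87.2 TPM. In each of these lists 3 of the 4 genes were higher in replicate 2 beyond counting error, as were most markers of the midbrain, erythroid and endothelial lists, and their part in the Hspb1 difference was not tested. Of its 100-base windows 42.7% also occur in the pseudogene Hsp25-ps1. Hspb6, known from muscle, stood at 4.44 TPM in replicate 1 and 4.89 TPM in replicate 2, and Hspb8, which works with Bag3, at 4.62 and 4.50 TPM. The related alpha-crystallin Cryab stood at 4.61 TPM in replicate 1 and 5.89 TPM in replicate 2, while the lens protein Cryaa stood at 0.14 TPM in replicate 1 and was listed at 0 in replicate 2. For Hspb6, Hspb8 and Cryab the intervals included equality.

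Of the 5 heat shock factors 2 were detected. Hsf2 (ENSMUSG00000019878.8, chr10:57486385-57513135, plus strand), a factor with roles in brain and germ cell development, stood at 77.0 TPM in replicate 1 and 73.9 TPM in replicate 2. Hsf1 (ENSMUSG00000022556.11, chr15:76477422-76501913, plus strand), the main factor of the stress response, stood at 51.9 TPM in replicate 1 and 50.8 TPM in replicate 2. Hsf1 was below Hsf2 by log2 ratios of -0.57 in replicate 1 and -0.54 in replicate 2, and by -0.96 and -0.94 when the older annotation was used. Hsf2 was slightly higher in replicate 1, the log2 ratio being 0.09 (0.02 to 0.15), and the interval of Hsf1 included equality.

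Under 1 TPM in both libraries were 10 members: Hsf3, Hsf4, Hsf5, Hspb2, Hspb3, Hspb7, Hspb9, Hspa1b, Cct6b and Cct8l1. Their levels lay between 0 and 0.38 TPM, from at most 27 expected counts in a library. Several are known from other tissues, such as Hsf4 from the lens, Hspb2, Hspb3 and Hspb7 from muscle, and Hsf5 and Hspb9 from testis. Summed levels of 5 skeletal and heart muscle markers were 2.61 TPM in replicate 1 and 3.31 TPM in replicate 2. For 9 of the 10 the interval of the ratio included equality. For Hspa1b, which was under the minimum of 10 counts, it excluded equality. The posterior SD of Hspa1b was 3.29 counts in replicate 1 and 1.84 in replicate 2. The interval leaves this uncertainty out, so it is too narrow.

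The symbol rule also took 3 genes that are not chaperones of these families. Hspbp1, an exchange factor of Hsp70, stood at 86.5 TPM in replicate 1 and 86.8 TPM in replicate 2. Hspb11, which despite its symbol is the Ift25 subunit of transport in cilia, stood at 28.4 TPM in replicate 1 and 30.6 TPM in replicate 2. Hspbap1, named for binding a small heat shock protein, stood at 16.7 TPM in replicate 1 and 16.4 TPM in replicate 2. The intervals of all 3 included equality.

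The transcript tables divide each gene's level among its annotated transcripts, and 25 members at 20 TPM or more in both libraries were described. The leading transcript took a median of 69.2% of the gene's TPM. It took over 90% in both libraries for 5 members and under 50% in at least 1 library for 6. Hspe1 was the most uniform, with 98.6% in replicate 1 and 98.4% in replicate 2 on a single transcript of 774 bases. For 23 of the 25 the leading transcript was protein-coding. The exceptions were Cct7, where Cct7-202, annotated as a target of nonsense-mediated decay, took 36.9% in replicate 1 and 35.2% in replicate 2 and led on the mean only, and Hspa4, where the processed transcript Hspa4-203 took 43.7% and 43.9%. The protein-coding Cct7-201 took 34.0% of the Cct7 TPM in replicate 1 and 35.5% in replicate 2, and had more expected counts than Cct7-202 in both, 6609 against 4483 in replicate 1 and 8826 against 5460 in replicate 2. Hsf1 was the most divided, over 16 transcripts, with Hsf1-205 at 20.0% in replicate 1 and 26.1% in replicate 2 and Hsf1-201 at 26.9% and 13.4%.

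Short transcripts carry a large TPM from few reads, which bears on the most abundant members. For Hsp90aa1 the 711-base transcript had 5530 expected counts in replicate 1 and 6925 in replicate 2, while the 3281-base Hsp90aa1-202 had 14099 and 17586 counts but only 23.5% and 24.2% of the TPM. For Hspa8 the 598-base Hspa8-203, a processed transcript, took 23.7% of the TPM in replicate 1 and 20.5% in replicate 2. Counting only protein-coding transcripts lowered the Hsp70 sum to 2084 TPM in replicate 1 and 2090.3 TPM in replicate 2, and the cytosolic chaperonin sum to 2066 and 2190 TPM. The mitochondrial chaperonin kept 99.2% of its sum in replicate 1 and 99.1% in replicate 2. Oligo-dT priming and the absence of full-length reads mean that the division among transcripts is the model's estimate.

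**Figure D5:**
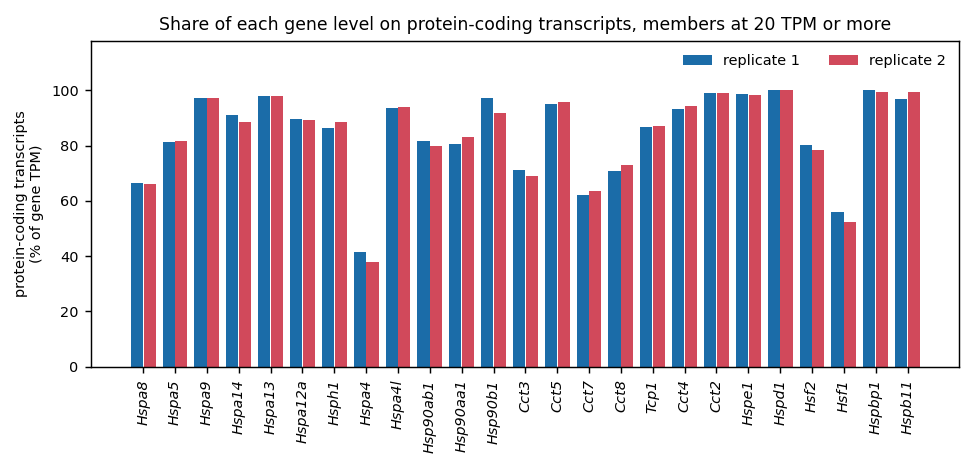
Share of each gene's TPM that falls on transcripts annotated as protein-coding, in percent, for the 25 members at 20 TPM or more in replicate 1 (blue, left) and replicate 2 (red, right). Hspa4 is lowest at 41.6% in replicate 1 and 37.8% in replicate 2, followed by Hsf1 at 56.1% and 52.4%.

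The same libraries were also quantified against the older annotation M4, and 31 detected members could be compared. The log2 ratio of M21 over M4 had a median of -0.07 over these members and -0.07 over 12985 detected coding genes. Of the 31 members, 4 lay more than 0.25 from the coding median. The same share of all coding genes was not counted, so these 4 cannot be set against it. Hspbap1 had the largest ratio, with 16.7 TPM under M21 and 7.96 TPM under M4 in replicate 1 and 16.4 and 7.47 TPM in replicate 2. Hsf1 followed with 51.9 TPM under M21 and 34.8 TPM under M4 in replicate 1 and 50.8 and 33.3 TPM in replicate 2. Cct7 had a mean log2 ratio of 0.35, Hsf2 0.20 and Hspbp1 0.14. Hspa14 is not under the same identifier in M4; the gene Gm45902, which overlaps it on the same strand by 8264 bases, stood at 8.75 TPM in replicate 1 and 8.17 TPM in replicate 2 under M21, and at 83.1 and 87.7 TPM under M4.

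Sequence shared with other annotated genes touched a minority of the members. When the longest coding transcript of each was cut into 100-base windows, 29 of the 43 shared no window with another annotated gene, and 14 shared some. Windows were matched on both strands, so the 14 also include members that share windows with a gene overlapping them at their own locus. Examples are Tcp1 with Acat3 and Cct7 with Pradc1. Hspa8 shared 63.4% of its windows, mostly with Gm26825, and Hsp90aa1 47.5%, mostly with Gm12346. The posterior SD of the counts was 61.9 counts in replicate 1 and 80.7 in replicate 2 for Hspa8, beside 58893 and 74298 expected counts, so this uncertainty was small against its level. It was 0 in both libraries for 25 members. Among the annotated pseudogenes named after members, the 5 of Hspd1 held 1.15% of the parent's counts in replicate 1 and 1.20% in replicate 2, nearly all on Hspd1-ps3. The pseudogenes of Hspe1, Cct3 and Hspa9 held at most 8 counts in a library. Tcp1 overlaps Acat3 by 1255 bases and Mrpl18 by 645 bases on the opposite strand, and Cct7 overlaps Pradc1 by 457 bases; whether the counting used strand is not stated in the labels or file headers, so reads in these stretches cannot be assigned with certainty.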

How the data were processed

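For each of the 2 libraries the authors deposited gene and transcript tables against the annotations M4 and M21 of mm10, per the manifests deposited with them. Per the file headers the tables give an expected count, TPM, FPKM, the percent of a gene's TPM on each transcript, and a posterior SD of the expected count, an error score of the model. The aligner, the quantification tool and its version and the strand setting are not given in the sources used here. RSEM writes columns of these names. Nothing in the labels but the pools separates the replicates.

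The M21 gene tables were used for levels as deposited. Rows that name no gene, almost all of them ERCC, took 4.02% of counts in replicate 1 and 3.38% in replicate 2 and were left out of library sizes. For ratios, expected counts were rounded and scaled by TMM (edgeR 4.0.16, R 4.3.3). Each ratio carries an exact conditional (Clopper-Pearson) 95% interval. Its code was checked on simulated Poisson counts, the model the interval assumes. That check cannot show coverage in these libraries, whose reads are amplified and divided by a model. No test was run, because there is 1 group. Every member at 1 TPM or more in a library is named with values, the others as a group, and of each partner list the 2 highest and the lowest gene. Alternatives were annotation M4, FPKM, other scalings including DESeq2 1.42.0 size factors, other limits and leaving out each library. Coding sequences came from the GENCODE M21 transcripts and promoter windows from RefSeq. A planned comparison of protein sequences was replaced by coding sequences. The members and all lists were chosen with earlier results of these data known.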

Additional observations from a re-analysis of the deposited data

How the results depend on the processing

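Leaving aside the values with a library left out, 54 values were recomputed for 18 results. Of these, 29 stayed within the spread of the libraries (for counts, within 1.5 times) and 25 moved beyond it. A change of sign was looked for only in the log2 ratios between members within a library, and 0 of them changed sign. Under annotation M4 the median member level was 33.4 TPM, the chaperonin spread 2.64, the log2 ratio of Hsf1 over Hsf2 -0.95, and the family sums 201 TPM for Hsp110, 2975 for Hsp70, 2540.2 for Hsp90, 100.2 for heat shock factors, 603 for the mitochondrial chaperonin and 117 for the genes with the prefix only. The M4 median and the M4 sum of Hsp70 leave out Hspa14, which has no M4 value under its identifier. Counts per base of the longest coding transcript, added after the data were seen, gave a chaperonin spread of 2.40 and log2 ratios of 1.07 for Hsp90ab1 over Hsp90aa1, 9.38 for Hspa8 over Hspa1a and Hspa1b, -0.092 for Hspd1 over Hspe1, -2.22 for Hspa5 over Hspa8 and -0.80 for Hsf1 over Hsf2. The spread over 7 subunits without Cct6a, also added, was 2.48. Sums over protein-coding transcripts, also added, were 152 TPM for Hsp110, 2087 for Hsp70, 2044 for Hsp90, 2128 for the cytosolic chaperonin, 88.1 for heat shock factors and 129 for the genes with the prefix only. The cause of these moves was not tested beyond the change of annotation or length itself. Scaling by ERCC totals put 28 members beyond counting error, 0 higher in replicate 1 and 28 in replicate 2, against 10 and 6 under TMM; the median log2 ratio over all genes was then -0.28, against -0.01 under TMM, and all members called higher in replicate 1 except Hspa1l changed direction. At a 1.5-fold limit 1 member (Hspa1l) and with no minimum count 1 member (Hspa1b) differed between the libraries, both higher in replicate 1 and both chosen after their values were seen. Both intervals leave out the uncertainty of dividing reads between genes. Leaving out a library says nothing of stability here, since with 2 libraries each value lies within the SD of both by construction; 32 members were detected without replicate 1 and 33 without replicate 2, and no ratio between libraries can then be given. No paired analysis was possible because there is only 1 group.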
